A study of Arabidopsis thaliana with 6 samples.

Results

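The jasmonate ZIM-domain (JAZ) repressors are the proteins that hold the jasmonate response of Arabidopsis thaliana in check, and 10 of them, JAZ1 to JAZ10, were taken here by their TAIR10 locus identifiers. They were 10 of 27444 protein-coding genes and were chosen with earlier results of these data known. For each gene, regions were counted from 2500 bp upstream of the transcription start site (TSS) to 1000 bp past the gene end, a stretch called the gene window. A region counted from 1 bp of overlap.

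Chromatin immunoprecipitation followed by sequencing was performed on whole seedlings, 5 days after germination. The WUS-GR line carries pUBI10::mCherry-GR-linker-WUS, a fusion of the stem cell regulator WUSCHEL (WUS) to mCherry and to the steroid-binding domain of the glucocorticoid receptor, in a line homozygous for 1 insertion. Wild-type Col-0 seedlings, which carry no transgene, were the control. Seedlings of both genotypes received 25 µM dexamethasone for 2 h according to the labels, whereas the study's methods name a lower concentration. Dexamethasone lets the fusion enter the nucleus. Because the promoter is active in nearly all tissues, the fusion was present in many cells that do not make WUS, and cell types of the seedling were not separated. Chromatin was recovered with RFP-trap, which binds mCherry, or with antibodies to H3 acetylated on lysines 9 and 14 (H3K9/K14ac), a mark of active genes, or to H3K27me3, a mark of genes silenced by Polycomb proteins.

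Each of the 6 groups was represented by 1 list of window positions without scores. The RFP-trap lists held 42402 windows of 100 bp for WUS-GR and 706 for Col-0, and each names the windows in which that genotype exceeded the other. Adjacent windows were merged, which gave 10087 WUS-GR regions and 580 Col-0 regions. Histone windows of 500 bp in the WUS-GR list are called gained and those in the Col-0 list lost. Where a gained and a lost region of the same mark lay less than 73 bp apart, both were set aside. This filter follows the study's methods. The read depth behind the lists is unknown, and DNA of several immunoprecipitations had been pooled, so no replicate error and no test could be given. Marker levels that would check the labelled tissue cannot be read from positions. Each count over the JAZ genes is therefore set beside the share of all protein-coding genes with such a region, and 95% Wilson intervals cover counting error only.

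In the absence of hormone, JAZ proteins bind MYC2 and related bHLH activators and recruit the co-repressor TOPLESS, mostly through the adaptor NINJA. Jasmonoyl-isoleucine bridges JAZ proteins and the receptor COI1, the JAZ proteins are degraded, and MYC2 acts on promoters that often hold a G-box, the word CACGTG. Many JAZ genes are themselves MYC2 targets, which closes a negative feedback loop. JAZ1 and JAZ2, JAZ5 and JAZ6, and JAZ7 and JAZ8 are pairs of close relatives, JAZ3, JAZ4 and JAZ9 form another branch, and JAZ10 is known for splice forms that escape degradation.

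WUS-GR regions lay in the windows of 9 of the 10 JAZ genes, a share of 90% with an interval of 59.6 to 98.2%. JAZ4 was the exception. Over all protein-coding genes the share was 38.1%. The study reports that nearly all WUS binding lay in open chromatin, and it used open chromatin as the background for its own enrichments. Genes were not separated by open chromatin here. Whether the gap between these shares would remain among genes in open chromatin was not tested. None of the 10 JAZ genes had a Col-0 RFP-trap region, which allows a share of up to 27.8% by the Wilson interval, beside 2.39% of all protein-coding genes. At least 2 separate WUS-GR regions were found at 7 JAZ genes, namely JAZ1, JAZ2, JAZ3, JAZ5, JAZ6, JAZ9 and JAZ10, beside 14.2% of all genes. The upstream part of the window was hit at 9 JAZ genes and 29.4% of all genes, the gene body at 9 JAZ genes and 17.9%, and the downstream part at 4 JAZ genes and 12.6%. These 3 parts were distinguished after the positions had been seen. Their counts are not separate hits. At JAZ2, JAZ3, JAZ6, JAZ7, JAZ8 and JAZ9 a single region across the TSS gave both the upstream and the gene body hit. At JAZ5 the gene body hit was 146 bp of 3′ UTR. Within 500 bp of the TSS, a limit also set after the positions had been seen, a WUS-GR region was present at 9 JAZ genes and at 19.7% of all genes.

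**Figure D1:**
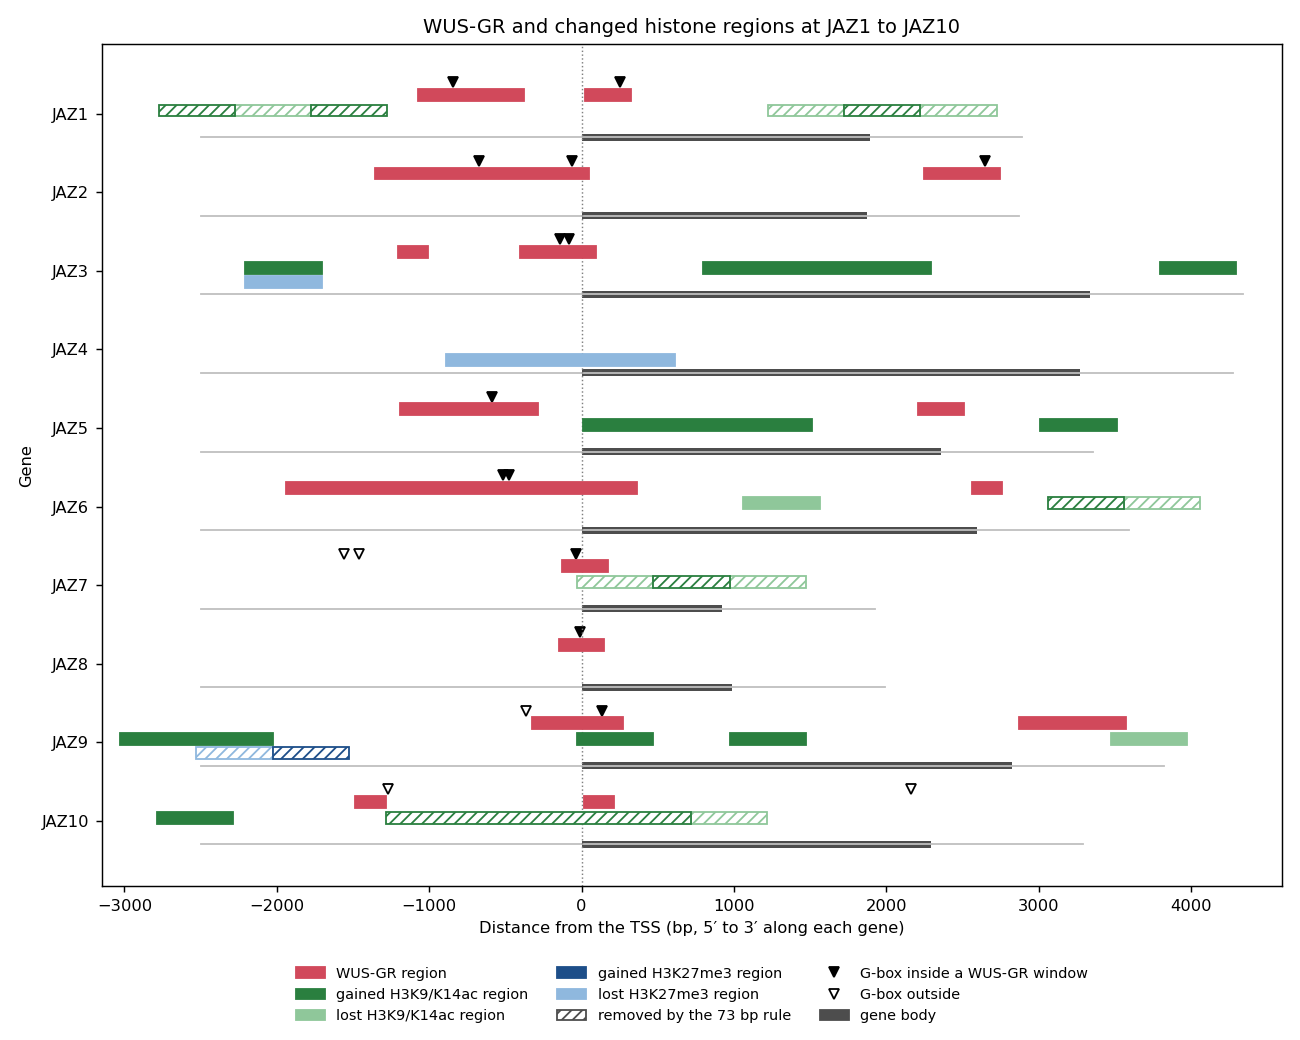
Position of merged regions at the 10 JAZ genes, with distance from the TSS in bp on the horizontal axis and 1 row for each gene. Filled bars are regions kept, hatched bars are those removed by the 73 bp rule, and triangles are G-boxes, filled where they lie inside a WUS-GR window. In 9 rows a WUS-GR bar crosses the TSS or comes within 500 bp of it, and 7 of these rows hold a further bar. The row of JAZ4 holds 1 lost H3K27me3 region and no WUS-GR bar.

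The sequences below were chosen from the G-boxes of the JAZ genes, first those in pairs inside WUS-GR windows. In JAZ3 and JAZ6 a pair of G-boxes stood close together upstream of the TSS, 58 bp apart in JAZ3 and 36 bp apart in JAZ6, counted from first base to first base. These stretches were read from the RefSeq copy of the TAIR10.1 genome, 5′ to 3′ along the gene, and capitals mark the G-box. The JAZ3 stretch is chr3:6119537-6119660 on the plus strand, from −170 to −47 relative to the TSS. The JAZ6 stretch is chr1:27277005-27277106 on the minus strand, from −544 to −443.
JAZ3 upstream stretch: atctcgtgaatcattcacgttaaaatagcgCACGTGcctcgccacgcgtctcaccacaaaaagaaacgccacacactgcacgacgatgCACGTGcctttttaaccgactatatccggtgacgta
JAZ6 upstream stretch: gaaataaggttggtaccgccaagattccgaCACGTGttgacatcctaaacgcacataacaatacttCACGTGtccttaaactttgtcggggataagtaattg

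Single G-boxes, shown as 30 bases with the G-box in capitals, allow relatives to be compared. The JAZ7 and JAZ8 sites, just upstream of each TSS, had 23 of 30 bases in common, the G-box included. This was the highest number among 153 pairs of JAZ sites, whose median was 13. The JAZ1 site at 252 and the JAZ2 site at −66 had 22 bases in common. Other combinations of JAZ1 and JAZ2 sites had 8 to 16. The JAZ5 site at −589 had 15 and 12 bases in common with the JAZ6 sites at −514 and −478. Sites of genes from different pairs reached 20, for JAZ1 at 252 and JAZ7 at −1461, so likeness did not follow relatedness throughout. The JAZ7 site is chr2:14572984-14573013 and the JAZ8 site chr1:10596330-10596359, both on the plus strand. The JAZ1 site is chr1:6622017-6622046 on the plus strand, in the 5′ UTR, and the JAZ2 site chr1:28150495-28150524 on the minus strand.
JAZ7 G-box at −34: aaaagcattttaCACGTGcgtgaagagaaa
JAZ8 G-box at −10: aaaaacattttcCACGTGagagaattgaag
JAZ1 G-box at 252: aacaaaataaaaCACGTGttttttatacca
JAZ2 G-box at −66: attaaattaaaaCACGTGttttaaatgtct

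Another 2 sites show how close to a WUS-GR region a G-box without one could lie. The JAZ9 G-box at −366 ended 32 bp before a WUS-GR region, and the JAZ10 G-box at −1273 began 12 bp after one. The stretches shown are chr1:26654151-26654180 for JAZ9 and chr5:4217501-4217530 for JAZ10, both on the plus strand.
JAZ9 G-box at −366: attcaaaaatttCACGTGttatgaaatgag
JAZ10 G-box at −1273: tacagctcccaaCACGTGaaagacatgcat

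The word CACGTG, which is its own reverse complement, occurred 18 times in the windows of the JAZ genes, in every gene except JAZ4. Of these sites, 13 lay inside WUS-GR windows, 72.2% with an interval of 49.1 to 87.5%. The interval takes the sites as independent. Sites in JAZ2, JAZ3 and JAZ6 shared a region, however, so the interval may be too narrow and is not read as a test. In the windows of all protein-coding genes, 2708 of 12375 sites, 21.9%, lay inside. JAZ windows hold more WUS-GR bases than other windows, 16.7% beside 3.82% of bases, so any word may fall inside more often, and these shares were not adjusted for that. The 13 sites were spread over 8 genes: 3 in JAZ2, 2 each in JAZ1, JAZ3 and JAZ6, and 1 each in JAZ5, JAZ7, JAZ8 and JAZ9. Among sites within 500 bp of a TSS, a limit set after the positions had been seen, 8 of 9 JAZ sites lay inside, beside 1273 of 4692 sites, 27.1%, over all genes. The 5 JAZ sites outside were at −1562 and −1461 in JAZ7, at −366 in JAZ9, and at −1273 and 2165 in JAZ10. JAZ10 was thus the 1 gene with WUS-GR regions and G-boxes that did not meet.

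Read from the regions, CACGTG was found in the central 200 bp of 5 of the 16 JAZ WUS-GR regions and of 14.6% of all WUS-GR regions. Over whole regions the numbers were 10 of 16 and 22.6%, but the JAZ regions were longer, with a median of 400 bp beside 300 bp. The whole-region shares were not adjusted for length. A window with the word was more often hit in the genome at large: 47% of the 12987 protein-coding genes with CACGTG in the window had a WUS-GR region, beside 30% of the 14457 genes without it. This comparison was not adjusted for window length. A match to the letters is a description of the sequence and does not show which protein was bound there.

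JAZ1 and JAZ2 are often used as early markers of the jasmonate response. JAZ1 (AT1G19180, chr1:6621777-6623668, plus strand) had 1 WUS-GR region of 700 bp from −1076 to −377 and another of 300 bp from 24 to 323, which covered 212 bp of 5′ UTR and 88 bp of intron. Together they made up 1000 bp, or 18.5% of the window, and each held a G-box. JAZ2 (AT1G74950, annotated as TIFY10B, chr1:28148574-28150446, minus strand) had a region of 1400 bp from −1354 to 45. Its G-boxes at −671 and −66 lay within this region. A further 500 bp, from 2246 to 2745, lay downstream of JAZ2 with a G-box at 2646, but closer to the TSS of the neighbouring gene AT1G74940. With 1900 bp, JAZ2 had more covered bases than 99.1% of protein-coding genes.

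JAZ5 and JAZ6 carry a motif through which they can reach TOPLESS directly. JAZ6 (AT1G72450, chr1:27273968-27276562, minus strand) had 2500 bp in WUS-GR windows, the most of the 10 genes, and 99.8% of protein-coding genes had fewer. A single region of 2300 bp ran from −1938 to 361, across the TSS and 362 bp of 5′ UTR. Over the genome, 13 of the 10087 WUS-GR regions, 0.129%, were at least as long. A second JAZ6 region, of 200 bp from 2562 to 2761, lay at the gene end and closer to the TSS of EDA25. JAZ5 (AT1G17380, chr1:5955155-5957511, minus strand) had 900 bp upstream, from −1189 to −290, with a G-box at −589. Its other region, 300 bp from 2211 to 2510, took in 146 bp of 3′ UTR and lay closer to the TSS of UBP1B. Of the 9 JAZ genes with WUS-GR regions, JAZ5 was the only one with no WUS-GR window in the 200 bp on either side of the TSS.

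JAZ7 and JAZ8 are the shortest of the JAZ genes, and JAZ8 lacks the standard degron that jasmonate perception targets. Each had 1 WUS-GR region of 300 bp across the TSS. In JAZ7 (AT2G34600, chr2:14573030-14573952, plus strand) it ran from −129 to 170 and covered 142 bp of 5′ UTR and 29 bp of coding sequence. In JAZ8 (AT1G30135, chr1:10596352-10597341, plus strand) it ran from −151 to 148 and covered 149 bp of 5′ UTR. Fewer covered bases than at JAZ7 or JAZ8 were found at 71% of protein-coding genes, among them all genes without a WUS-GR region.

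JAZ3, JAZ4 and JAZ9 form the branch that holds the 1 gene of JAZ1 to JAZ10 without a listed WUS-GR region. JAZ3 (AT3G17860, chr3:6119707-6123044, plus strand) had 200 bp from −1206 to −1007 and 500 bp from −406 to 93, and the region at the TSS covered the G-box pair. JAZ9 (AT1G70700, annotated as TIFY7, chr1:26654529-26657350, plus strand) had 600 bp from −328 to 271 with a G-box at 137, and 700 bp downstream from 2872 to 3571. The G-box at 137 and 239 bp of the first JAZ9 region lay within the annotated gene but outside the transcript used for UTR and coding bases. JAZ4 (AT1G48500, chr1:17931390-17934662, plus strand) had none and no G-box either. The WUS-GR region nearest to the lost H3K27me3 region of JAZ4 was 8700 bp away. With 1 list and unknown depth, a WUS-GR signal below the authors' threshold at JAZ4 was not detectable.

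JAZ10 (AT5G13220, chr5:4218786-4221077, plus strand) had 2 short WUS-GR regions of 200 bp each, from −1485 to −1286 and from 15 to 214. The second covered 173 bp of the 5′ UTR. Together they made up 400 bp, 6.91% of the window, and 77.1% of protein-coding genes had fewer covered bases.

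**Figure D2:**
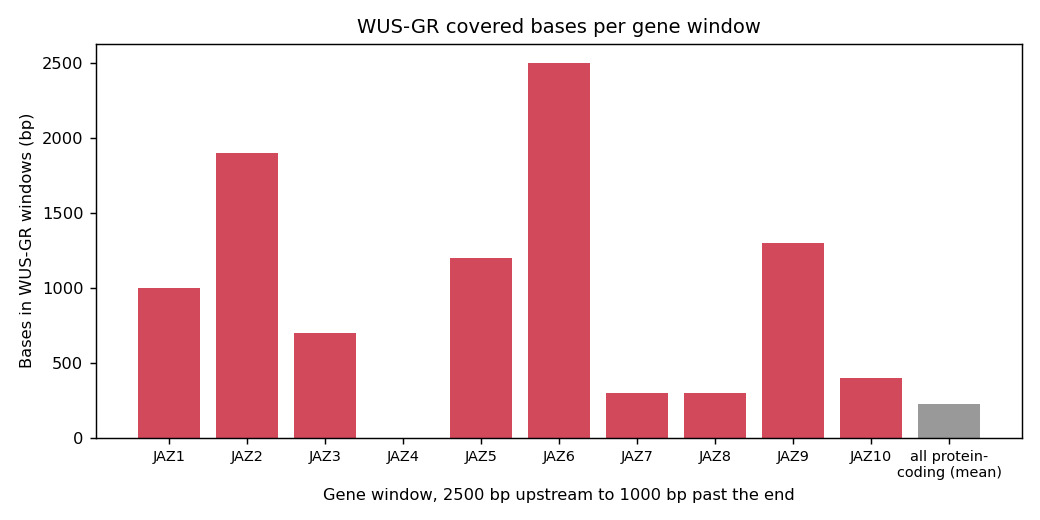
Bases of each gene window that lie in WUS-GR windows, in bp, 1 bar for each JAZ gene and a grey bar for the mean over all protein-coding genes. JAZ6 reaches 2500 bp and JAZ2 1900 bp, JAZ4 is at 0, and the mean over all protein-coding genes is 225 bp.

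In order of covered bases, JAZ6 (2500 bp) and JAZ2 (1900 bp) were followed by JAZ9 with 1300 bp, JAZ5 with 1200 bp, JAZ1 with 1000 bp, JAZ3 with 700 bp and JAZ10 with 400 bp. JAZ7 and JAZ8 had 300 bp each and JAZ4 had 0. The lists hold no replicate, so whether neighbours in this order differ beyond error cannot be said. The median of the 10 genes was 850 bp, beside a median of 0 and a mean of 225 bp over all protein-coding genes. Summed over the windows, 16.7% of JAZ bases lay in WUS-GR windows, beside 3.82% of bases over all protein-coding genes. Window length differed little, with a median of 5824 bp for the JAZ genes and 5578 bp for all protein-coding genes.

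Of the 16 WUS-GR regions at JAZ genes, 6 crossed the TSS, 4 lay wholly upstream of it and 6 wholly downstream. The same split was not made over all protein-coding genes, so it is a description only. The downstream regions of JAZ1 and JAZ10 lay just past the TSS. Those of JAZ2, JAZ5, JAZ6 and JAZ9 lay at or past the gene end, and 3 of these were nearest to the TSS of another gene. The median length of the 16 regions was 400 bp, beside 300 bp for all WUS-GR regions. The median midpoint was 15 bp upstream of the TSS, at −15, beside −146.5 for 15895 pairs of a region and a protein-coding gene. The JAZ value depends on how positions are taken, so no order is read from it: over the 96 single windows of 100 bp at the JAZ genes, the median was −296.5, since the long upstream regions then weigh more. In bins of 100 bp, the first bin after the TSS was covered at 8 JAZ genes and at 12.5% of all genes, and the last bin before it at 6 JAZ genes and 13.4% of all genes. Farther upstream, each bin between −1300 and −400 was covered at 4 or 5 JAZ genes, with 5 genes between −1100 and −1000, beside 5.93% of all genes in that bin. No JAZ gene was covered from 400 to 1000 bp past the TSS or more than 2000 bp upstream of it. Over all genes, the share in each of these bins was 1.13 to 1.92% past the TSS and 5.14 to 5.35% upstream. With shares this low, finding none among so few JAZ genes in a bin does not set them apart.

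**Figure D3:**
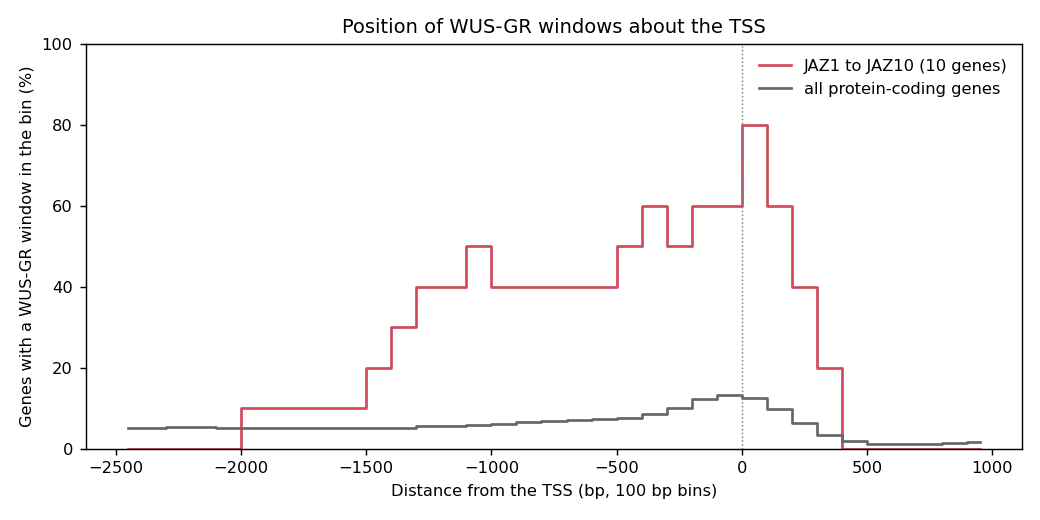
Share of genes with a WUS-GR window in each 100 bp bin, in percent, against distance from the TSS in bp, for the 10 JAZ genes and for all protein-coding genes. The JAZ line stands at 80% in the first bin after the TSS, where the line for all protein-coding genes is at 12.5%.

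Histone changes at the JAZ genes were mixed in direction. Gained H3K9/K14ac was found at 4 genes, JAZ3, JAZ5, JAZ9 and JAZ10, beside 33.1% of all protein-coding genes. Lost H3K9/K14ac was found at 2 genes, JAZ6 and JAZ9, beside 28.8%. H3K27me3 was lost at JAZ3 and JAZ4, beside 14.2%, and gained at none, beside 3.88%. The intervals of the 4 shares, of which the widest ran from 16.8 to 68.7%, all contained the share over all genes. With 10 genes and 1 list per group these intervals are wide. The counts therefore cannot show whether the JAZ genes differ from the background in histone changes.

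**Figure D4:**
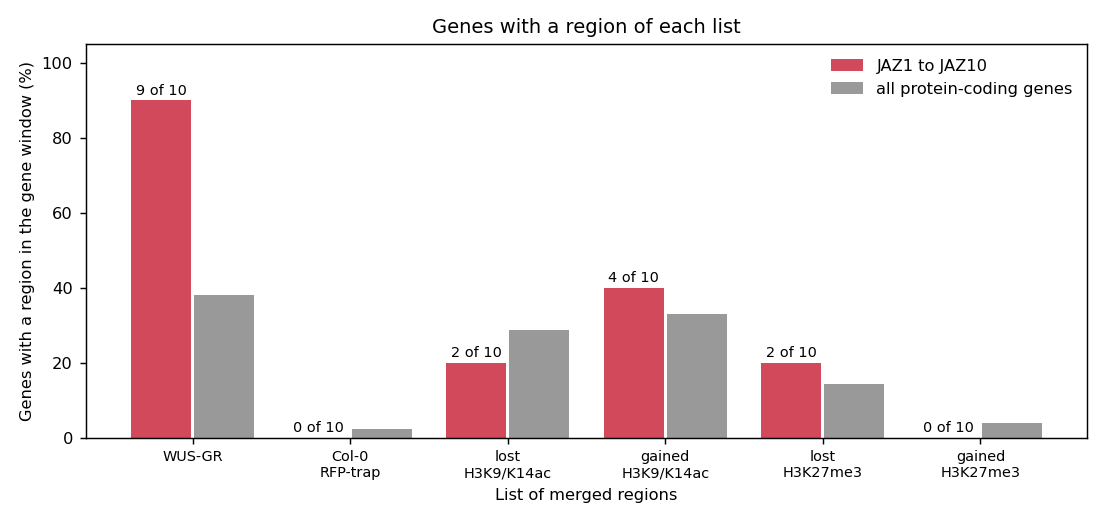
Share of genes with a merged region of each list in the gene window, in percent, for the 10 JAZ genes and, to the right of each, for all protein-coding genes. The WUS-GR list has 9 of 10 JAZ genes against 38.1%, while the histone lists lie between 0 and 4 of 10.

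Among regions kept by the 73 bp rule, the 2 longest acetylation changes lay in gene bodies. At JAZ5, a gained region of 1500 bp ran from 11 to 1510, over 63.6% of the gene, and began 300 bp from the upstream WUS-GR region. At JAZ3, a gained region of 1500 bp ran from 794 to 2293, over 44.9% of the gene and 700 bp from the WUS-GR region at the TSS. At JAZ9, gained regions of 500 bp ran from −28 to 471, across part of the WUS-GR region, and from 972 to 1471. Together they covered 34.4% of the gene.

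JAZ6, the gene with the most WUS-GR bases, had the opposite direction: a lost region of 500 bp from 1062 to 1561, over 19.3% of the gene and 700 bp from the WUS-GR region. The lost region of JAZ9, from 3472 to 3971, lay downstream of the gene and overlapped the downstream WUS-GR region.

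Several kept regions in JAZ windows lay closer to another gene. At JAZ3, the same 500 bp, from −2206 to −1707, had gained H3K9/K14ac and lost H3K27me3, and the nearest TSS was that of AT3G17850. A gained region of 500 bp at the far end of the JAZ3 window was closest to TDX. At JAZ5 a gained region of 500 bp was closest to UBP1B, at JAZ9 one of 1000 bp was closest to HWI1, and at JAZ10 the only kept gained region was closest to AT5G13210. At JAZ4, in contrast, the lost H3K27me3 region of 1500 bp ran from −889 to 610, across the TSS of JAZ4 itself, and included 268 bp of 5′ UTR and 76 bp of coding sequence.

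The 73 bp rule removed more at the JAZ genes than the kept regions show. Without it, gained H3K9/K14ac was found at 7 JAZ genes, beside 49.2% of all genes, and lost H3K9/K14ac at 5, beside 46.0%. Lost H3K27me3 was then found at 3 JAZ genes, beside 27.6%, and gained H3K27me3 at 1, JAZ9, beside 18.1%. At JAZ1, 3 gained and 3 lost regions of 500 bp alternated end to end on either side of the gene start, 3 upstream and 3 from 1224 onward. At JAZ7, 2 lost regions and 1 gained region alternated from −29 to 1470. At JAZ10, a gained region of 2000 bp from −1285 to 714, which took in the G-box at −1273 and the WUS-GR region at the TSS, was removed because a lost region began at 715. JAZ2 and JAZ8 had no region in any histone list, with or without the rule.

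Genes that act with the JAZ proteins were read from a list of 43 jasmonate genes, chosen with earlier results known and grouped by role. WUS-GR regions lay at 30 of them, 69.8%, beside 38.1% of all protein-coding genes, the share against which each count by role stands. Of the other TIFY family genes, 1 of 6 had a region: JAZ11, JAZ12 and JAZ13 had none, and the gene with a region was PPD2, named here because the count is small. JAZ12 had a Col-0 RFP-trap region and 2 gained H3K9/K14ac regions, and JAZ13 a gained H3K27me3 region. The receptor gene COI1 had no WUS-GR region, while NINJA had 400 bp. TPL, the gene of TOPLESS, had 2 regions with 2033 bp in all. It is named after its values were seen, as the remaining gene of this group.

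Among the bHLH genes whose proteins JAZ repressors bind, 5 of 7 had a WUS-GR region. MYC2 had 400 bp from 107 to 506, at the same side of the TSS as the second region of JAZ1. MYC3 had 600 bp and MYC4 had 1000 bp. Among the genes of jasmonate synthesis, 12 of 13 had a region. AOS, an enzyme early in the pathway, had 1700 bp, and the lipoxygenase genes LOX2, LOX3 and LOX4 had 700, 1600 and 900 bp. OPR3, a reductase, had 200 bp, and JAR1, which conjugates jasmonate to isoleucine, had 700 bp. Genes of jasmonate removal had a region in 9 of 10 cases and response genes in 1 of 4, beside the same 38.1%.

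**Figure D5:**
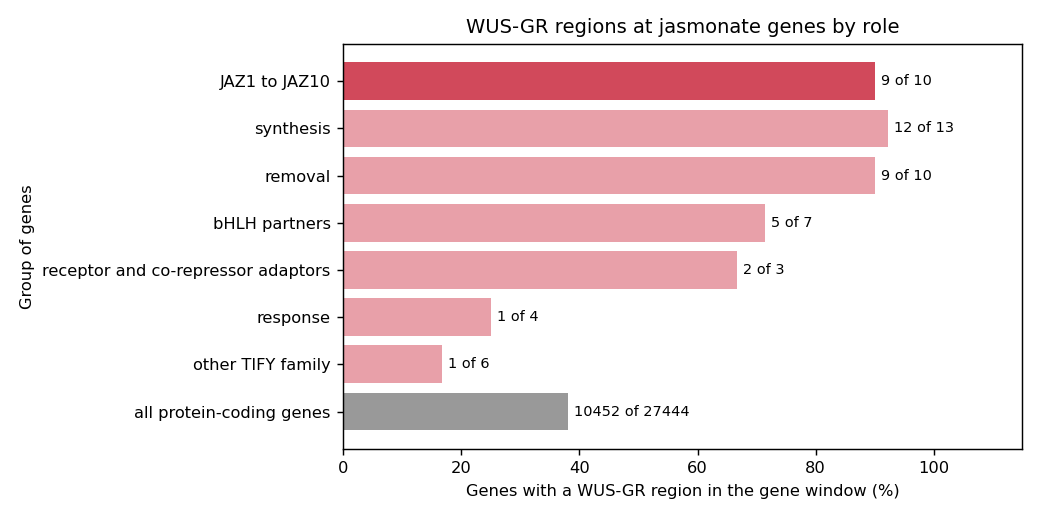
Share of genes with a WUS-GR region in the gene window, in percent, for JAZ1 to JAZ10, for 6 groups of other jasmonate genes and for all protein-coding genes, with counts beside the bars. JAZ1 to JAZ10, synthesis and removal stand at 9 of 10, 12 of 13 and 9 of 10, above the other groups.

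The genes whose covered bins were most like those of JAZ6 were AT1G10150, AT5G01720 and AT5G14120, with Jaccard indices of 0.958, 0.958 and 0.923. The index is the number of shared bins over the number covered in either gene, among 35 bins of 100 bp from 2500 bp upstream to 1000 bp past the TSS, of which JAZ6 had 24 covered. It describes position in 1 list.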

How the data were processed

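The authors mapped the reads with BWA v0.7.17 to TAIR10 and called windows with hiddenDomains v3.0 at a posterior above 0.9, comparing WUS-GR with Col-0. The deposited lists hold positions only (chromosome, start and end, 1 list per group) and no counts or scores. Windows were 100 bp for RFP-trap and 500 bp for the histone marks, with 1 of 330 bp at a chromosome end.

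With Python 3.11.15, NumPy 2.4.6 and SciPy 1.17.1, adjacent windows were merged, gained and lost regions of a mark closer than 73 bp were removed as in the study's methods, and overlaps with gene windows were counted. The NCBI annotation of TAIR10.1 gave the gene models, and its 5 nuclear chromosomes fit the last windows of the lists. UTR, intron and coding bases refer to the transcript with the longest coding sequence. Distances are in bp from the TSS base, counted as 0. Words were counted on both strands. The scripts were tested on simulated data. The JAZ genes, the jasmonate list, the words and the genes named by value were chosen with earlier results of these data known. All 10 JAZ genes, partner genes from the jasmonate list and the 3 genes most like the member with the most WUS-GR bases are named.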

Additional observations from a re-analysis of the deposited data

How the results depend on the processing

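Over 16 results, 43 alternatives were computed. Of these, 32 were counted as leaving the result within its limit, 11 as moving it and 0 as reversing a direction. These labels do not track whether a JAZ share lies above or below the share over all genes. That side changed under some settings for lost and gained H3K9/K14ac and for lost H3K27me3. Lost H3K9/K14ac, at 2 of 10 genes beside 28.8%, was at 5 beside 46.0% with all merged regions kept. Gained H3K9/K14ac, at 4 beside 33.1%, was at 3 beside 30.4% with midpoints. Lost H3K27me3, at 2 beside 14.2%, was at 1 beside 10.8% with an upstream limit of 1000 bp. The 9 JAZ genes with a WUS-GR region were still 9 with midpoints, with an upstream limit of 1000 bp and with the nearest TSS only, and 8 with regions of at least 300 bp. The downstream part alone, a division made after the data were seen, gave 4, beside 12.6%. Histone counts were less stable. With all merged regions kept, lost H3K9/K14ac moved to 5 genes, beside 46.0%. Gained H3K9/K14ac moved to 7, beside 49.2%, and gained H3K27me3 to 1, beside 18.1%. With histone regions of at least 1000 bp, lost H3K9/K14ac moved to 0, beside 8.21%, and lost H3K27me3 to 1, beside 6.92%. Lost H3K27me3 was also at 1 gene with an upstream limit of 1000 bp, beside 10.8%, and with the nearest TSS only, beside 7.90%. CACGTG was found in 10 JAZ regions over the whole region and in 10 over the central 400 bp, instead of 5 in the central 200 bp. The shares over all WUS-GR regions were 22.6%, 21.3% and 14.6% in the same order. The share of JAZ G-boxes inside WUS-GR windows was 88.9% within 500 bp of a TSS, beside 27.1% over all genes. This limit was chosen after the data were seen. The median position of the JAZ WUS-GR regions, −15, was −296.5 with windows of 100 bp taken singly. This alternative was counted among the 32, although −15 and −296.5 lie on either side of −146.5. That value is the median midpoint of regions over all protein-coding genes. No paired analysis was possible because the lists carry no replicate numbers. Depth is unknown and limits every absence to what the authors' threshold could detect.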

Other observations

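Other words were counted in the JAZ windows in the same way. CACATG, a relative of the G-box, occurred 39 times, and 13 sites lay inside WUS-GR windows, beside 6.73% over all protein-coding genes. TTAATGG had 1 of 9 sites inside, beside 5.32%, TGAATGAA 0 of 3, beside 6.67%, and GAGAGAGA 4 of 13, beside 15.1%. As for the G-box, these shares were not adjusted for the larger number of WUS-GR bases in JAZ windows.

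A lost H3K9/K14ac region was found at 2 of the 10 JAZ genes, at 6 of the 10 jasmonate removal genes, which encode enzymes that hydroxylate, split or modify the hormone, and at 28.8% of all protein-coding genes. The removal genes are the role with the highest share and were picked after the values were seen. Over all 43 other jasmonate genes the count was 10, or 23.3%, with 2 of 13 synthesis genes, 2 of 6 other TIFY genes, and 0 of 7 bHLH genes, 0 of 3 receptor and adaptor genes and 0 of 4 response genes.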
